A study of Mus musculus with 2 samples.

Results

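Fgf5, Otx2, Pou3f1, Zic2, Tcf15 and Sox4 mark the formative and primed epiblast, the stages that follow naive pluripotency in the mouse embryo. All 6 were found by gene name in the count table, which lists 22556 genes. They were measured by mRNA sequencing in the iXist-ChrX-Dom line of mouse embryonic stem cells (mESCs), without induction. This is a female line with Dom/129S and Cast chromosomes, in which a TetOn promoter stands in place of the endogenous Xist promoter on the Dom/129S allele. The cells were kept in serum with LIF on feeder fibroblasts, which were removed by pre-plating, and were sampled at 0 h without doxycycline. The series holds 1 group of 2 replicates, so every comparison is between these genes or between these libraries, and none is between treatments. Nothing in the labels says that the replicates were separate cultures. The p-values ask only whether these libraries differ by more than counting error, and such a difference may be technical. The labelled cell type also names a later differentiation to neural precursors, whereas the titles give ES cells at 0 h.

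Naive mESCs resemble the early epiblast. On the way to lineage commitment they lose naive factors such as Nanog and Zfp42 and pass through a formative state, in which they become able to respond to differentiation cues. Otx2 encodes a homeodomain factor that directs this step and opens enhancers together with the general pluripotency factor Oct4. Pou3f1 (also called Oct6) and Zic2 encode further transcription factors of that transition, Tcf15 a basic helix-loop-helix (bHLH) factor found in cells primed to differentiate, Sox4 an SRY-box factor of the SOXC group, and Fgf5 a secreted growth factor that is the classical marker of the primed epiblast. Cultures in serum and LIF are known to be mixed, with cells that move between naive and more advanced states.

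Replicate 1 held 23716499 counted fragments and replicate 2 held 20275749. A count of 0 was taken to allow up to 3 counts (the one-sided 95% Poisson limit), which is 0.126 and 0.148 CPM (counts per 1000000) at these totals. Such limits, and the intervals given here, hold for counting error alone, since the reads carry no molecular identifiers. TPM (transcripts per 1000000) values were computed on a pair of lengths. Span TPM divides by the length in the table, which runs over the whole gene with its introns, and counted exonic TPM divides by the exonic bases inside that interval. In bulk libraries, fewer cells that express a gene cannot be told apart from less of its RNA in each cell.

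The 6 markers were all detected, but at very different levels. Each had at least 10 counts in each replicate, which 56.2% of all genes had, and 4 of the 6 had at least 50 counts in each, which 43.2% of all genes had. Otx2 and Zic2 lay in the upper part of the transcriptome, Sox4, Tcf15 and Pou3f1 lay lower, and Fgf5 was near 1 TPM. Together the 6 genes took 226.9 CPM in replicate 1, and 229.6 in replicate 2. Otx2 held 69.8% of those counts in replicate 1 and 60.7% in replicate 2, and Zic2 held 20.4% and 26.0%.

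Otx2 (chr14:48657676-48667644, minus strand, mm10) was counted 3758 times in replicate 1 and 2827 times in replicate 2. Its span TPM was 254 and 251, a mean of 252.6 ± 2.23 (SD, n = 2). Its counted exonic TPM was 159 and 149.6, a mean of 154 ± 6.96 (SD, n = 2). Relative to their mean, the replicates were closer together than for any other marker, and Otx2 exceeded the other 5 in each library on either scale. It stood above 97.1% of all genes in span TPM and above 93.3% in counted exonic TPM. Nanog, a defining naive factor, was 4.52 times as high as Otx2 in replicate 1 (95% exact binomial interval 4.36 to 4.69) and 4.53 times as high in replicate 2 (4.35 to 4.73), both in counted exonic TPM.

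Zic2 (chr14:122475383-122480328, plus strand) had 1097 and 1212 counts. Its span TPM was 149.5 and 217, a mean of 183 ± 47.6 (SD, n = 2), and its counted exonic TPM was 53.9 and 74.3, a mean of 64.1 ± 14.4 (SD, n = 2). It was the next marker below Otx2 on either scale, with no overlap between the replicates of these 2 genes. Otx2 was 2.95 times Zic2 in replicate 1 and 2.01 times in replicate 2 in counted exonic TPM, but only 1.70 and 1.16 times in span TPM.

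Sox4 (chr13:28950729-28953682, minus strand) had 313 and 471 counts. It has a single exon and no intron, so its span in the table is only 2954 bp, while the median span of all genes is 15760.5 bp. Its span TPM was 71.4 and 141, a mean of 106 ± 49.3 (SD, n = 2). Its counted exonic TPM was 12.7 and 23.9, a mean of 18.3 ± 7.88 (SD, n = 2). Sox4 thus stood above 92.9% of all genes in span TPM and above 72.2% in counted exonic TPM. The annotated gene is longer than the counted interval, and 1841 of its exonic bases lie outside it, where fragments were not counted.

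Pou3f1 (chr4:124657645-124660655, plus strand) also has 1 exon, and it had 39 and 78 counts. Its span TPM was 8.73 and 22.9, a mean of 15.8 ± 10.04 (SD, n = 2), while its counted exonic TPM was 1.55 and 3.88, a mean of 2.72 ± 1.64 (SD, n = 2). Pou3f1 was 1.16 times Fgf5 in replicate 1 and 3.81 times in replicate 2 in counted exonic TPM, and with the full exonic length it was 0.905 times Fgf5 in replicate 1. Its place among all genes went from above 75.3% of them to above 53.5% with the change of length. Sox4 and Pou3f1, the single-exon markers, were the 2 whose position moved by more than 20 percentile points between span TPM and TPM over the full exonic length.

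Tcf15 (chr2:152143608-152149096, plus strand) had 147 counts in replicate 1 and 51 in replicate 2. Its span TPM was 18.1 and 8.22, a mean of 13.1 ± 6.95 (SD, n = 2), and its counted exonic TPM was 18.9 and 8.19, a mean of 13.6 ± 7.59 (SD, n = 2). In span TPM its range overlapped that of Pou3f1, and in counted exonic TPM it overlapped that of Sox4, so these neighbours in the order do not differ beyond their spread.

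Fgf5 (chr5:98254183-98277033, plus strand) had 28 counts in replicate 1 and 17 in replicate 2. In CPM these are 1.18 (95% exact Poisson interval 0.785 to 1.71) and 0.838 (0.488 to 1.34), above the limit that a count of 0 allows. Its span TPM was 0.826 and 0.658, a mean of 0.742 ± 0.119 (SD, n = 2), and its counted exonic TPM was 1.34 and 1.02, a mean of 1.18 ± 0.231 (SD, n = 2). Fgf5 was the lowest marker in each library on either of these scales, and it stood above 45.1% of all genes in span TPM. Otx2 exceeded it in counted exonic TPM by 119 times in replicate 1 (95% exact binomial interval 82.0 to 179) and by 147 times in replicate 2 (91.7 to 253). Of the 2452 words of 50 bases in its longest transcript, 20 also occur in transcripts of other genes, and no such word of the other 5 markers does.

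**Figure D1:**
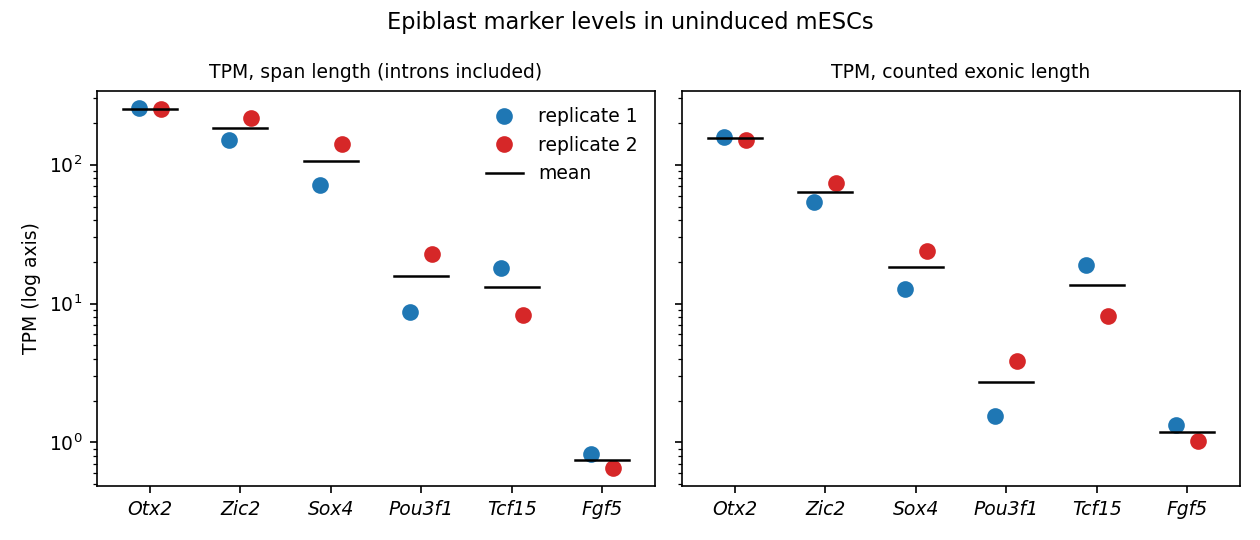
Level of each epiblast marker in the 2 replicates of uninduced mESCs, as TPM on a log axis, with span length on the left and counted exonic length on the right. Points are replicates and black lines their mean. Otx2 is highest in both panels, at a mean of 252.6 and 154 TPM, and Fgf5 lowest, at 0.742 and 1.18 TPM, while Sox4 and Pou3f1 stand lower in the right panel than in the left.

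The start regions of 3 of the 6 genes are held in the RefSeq promoter table (GRCm38.p6, the assembly of mm10), as windows from 250 bases before to 50 bases after a start site, and Pou3f1, Zic2 and Tcf15 have none there. Shown here are the windows of the highest marker, the lowest marker and a marker whose libraries differed. Capitals mark matches, on either strand, to TATAAA (the TATA box), to CCAAT (the site of NF-Y), to TAATCC (a homeodomain motif bound by OTX proteins), to GGGCGG (the GC box of SP factors) and to CACGTG (an E-box).
Otx2, chr14:48667595-48667894, minus strand: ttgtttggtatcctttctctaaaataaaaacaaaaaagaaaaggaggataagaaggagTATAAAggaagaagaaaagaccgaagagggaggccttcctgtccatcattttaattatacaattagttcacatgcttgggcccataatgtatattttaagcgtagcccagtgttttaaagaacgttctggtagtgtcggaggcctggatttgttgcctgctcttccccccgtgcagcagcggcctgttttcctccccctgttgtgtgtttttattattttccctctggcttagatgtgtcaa
Fgf5, chr5:98253934-98254233, plus strand: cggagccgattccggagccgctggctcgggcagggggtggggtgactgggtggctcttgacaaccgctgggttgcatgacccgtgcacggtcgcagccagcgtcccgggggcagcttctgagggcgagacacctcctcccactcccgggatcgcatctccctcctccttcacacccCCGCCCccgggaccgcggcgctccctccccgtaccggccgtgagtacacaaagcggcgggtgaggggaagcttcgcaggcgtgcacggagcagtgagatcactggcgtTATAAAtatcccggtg
Sox4, chr13:28953650-28953949, minus strand: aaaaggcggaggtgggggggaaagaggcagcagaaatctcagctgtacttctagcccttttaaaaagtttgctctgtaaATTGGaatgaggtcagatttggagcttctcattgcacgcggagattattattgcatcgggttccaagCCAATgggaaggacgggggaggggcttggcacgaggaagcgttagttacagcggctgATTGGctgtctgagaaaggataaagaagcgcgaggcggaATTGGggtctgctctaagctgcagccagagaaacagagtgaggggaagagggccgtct

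The Otx2 window shown holds 6 CpG sites and 41.7% GC, and a TATAAA lies at position -192 from the start site. It is the poorest of the Otx2 windows, and the 3 others hold 8, 16 and 11 CpG sites and 47.7%, 51% and 53.7% GC. The Fgf5 window is much richer, with 29 CpG sites and 68.3% GC, against medians of 7 CpG sites and 52.7% GC over 32851 windows of the same table. It holds GGGCGG on the opposite strand at -74, a motif found in 35.7% of those windows, and TATAAA at +34, downstream of the start site. TATAAA occurs in 13.6% of the windows. The Sox4 window, with 12 CpG sites, holds CCAAT 4 times, at -171, -104, -47 and -8, and 1.06% of the windows hold it at least 4 times, while 37.4% hold it at all. Of the 3 other start sites of Otx2 in the table, only that at chr14:48665060-48665359 holds TAATCC, on the opposite strand at -211, and 7.06% of all windows hold it. CACGTG, present in 7.15% of the windows, occurs in none of the 6 windows of these genes. The lowest marker had the most CpG sites of the 3 windows shown. A match is a description of the letters only.

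Whether the 2 libraries differed by more than counting error was asked gene by gene, with an exact binomial test (two-sided). It set the counts against the library totals and was adjusted by Benjamini-Hochberg over all genes with at least 10 counts in total. Of the 6 markers, 5 passed an adjusted p of 0.05, while 60.8% of the 14536 genes tested did. The share of markers called is thus read against a background in which most genes were called. Zic2, Sox4 and Pou3f1 were higher in replicate 2, a direction that 15.1% of the genes tested took. Tcf15 was lower, and so was Otx2 against the library totals though not with the other scalings given below, as were 45.7% of the genes tested. The median log2 ratio of replicate 2 over replicate 1 was -0.31 over all genes tested and 0.093 over the 6 markers. With TMM factors, which raise every log2 ratio by 0.26, 4 of the 6 markers and 57.7% of the genes passed. With DESeq2 size factors 5 markers and 57.8% of the genes passed, and with the expectation taken from genes of like exon number 4 markers and 58.3% of the genes.

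Pou3f1, at 1.64 CPM in replicate 1 and 3.85 CPM in replicate 2, had a log2 ratio of 1.22 (95% interval 0.65 to 1.82, adjusted p = 2.80e-05, exact binomial test). For Sox4, at 13.2 and 23.2 CPM, it was 0.81 (95% interval 0.61 to 1.03, adjusted p = 2.87e-14, exact binomial test). For Zic2, at 46.3 and 59.8 CPM, it was 0.37 (95% interval 0.25 to 0.49, adjusted p = 3.24e-09, exact binomial test). These 3 remained higher in replicate 2, and past the threshold, with TMM factors, with DESeq2 size factors and with an expectation taken from GC content.

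Tcf15 took the opposite direction, at 6.20 CPM in replicate 1 and 2.52 CPM in replicate 2. Its log2 ratio was -1.29 (95% interval -1.79 to -0.83, adjusted p = 1.86e-08, exact binomial test), and it stayed lower and past the threshold under the same alternatives. For Otx2, at 158 and 139 CPM, the log2 ratio was only -0.18 (95% interval -0.26 to -0.11, adjusted p = 8.75e-07, exact binomial test). That difference turned to 0.072 with TMM factors (adjusted p = 0.0772, exact binomial test) and to 0.13 with DESeq2 size factors (adjusted p = 0.000958, exact binomial test), so no direction is given for Otx2. For Fgf5 the log2 ratio was -0.48 with an interval of -1.46 to 0.43 (adjusted p = 0.373, exact binomial test), and a difference was not detectable at this depth.

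The libraries also differed by GC content, which is given here because it moves with these ratios. Over the 9236 autosomal genes that reached 50 counts in both libraries, the median log2 ratio was 0.31 for genes up to 40% GC and -0.73 for genes of 56 to 60% GC. Zic2 has a transcript of 59.9% GC, and 97.9% of 290 autosomal genes within 2 percentage points of it had a lower ratio, with a median of -0.70. Sox4 has 51.1% GC, and 99.95% of 2055 such genes lay below it, with a median of -0.45. Pou3f1 has 63.9% GC, and all 37 genes near it lay below, with a median of -0.59. These 3 markers were grouped by their positive ratio, so their place above genes of like GC content is a description and not a test. The genes near them all reached 50 counts in both libraries, which Pou3f1 did not. Tcf15, at 65.8% GC, had only 12 genes near it, with a median of -0.27, and 16.7% of them were lower still. Otx2 at 46.8% GC and Fgf5 at 47.0% GC lay within the spread of their neighbours, with 45.3% and 19.9% of those genes below them.

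Removing the GC trend left log2 differences of 1.80 for Pou3f1, 1.33 for Sox4 and 1.13 for Zic2. The SD of such differences was 0.42 over the 9236 genes, which is no measure for Pou3f1 and Fgf5, whose counts lie below the minimum of 50 in at least 1 library and whose counting intervals are wide. It left -0.88 for Tcf15, -0.24 for Fgf5 and 0.044 for Otx2. With the GC trend as the expectation, 45.5% of 14390 genes and 4 of the 6 markers passed. Sox4 and Pou3f1 have 1 exon, and the median log2 ratio of single-exon autosomal genes was -0.11 over 450 genes, against -0.18 for genes with 2 to 5 exons. Among genes above 48% GC, a band that holds both markers, it was -0.40 for 172 single-exon genes and -0.54 for 1079 genes with 2 to 5 exons. Above 56% GC, which leaves out Sox4, it was -0.16 for 33 single-exon genes and -0.66 for 155 genes with 2 to 5 exons. Whether GC content or exon number has a part in the differences of the markers was not tested.

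**Figure D2:**
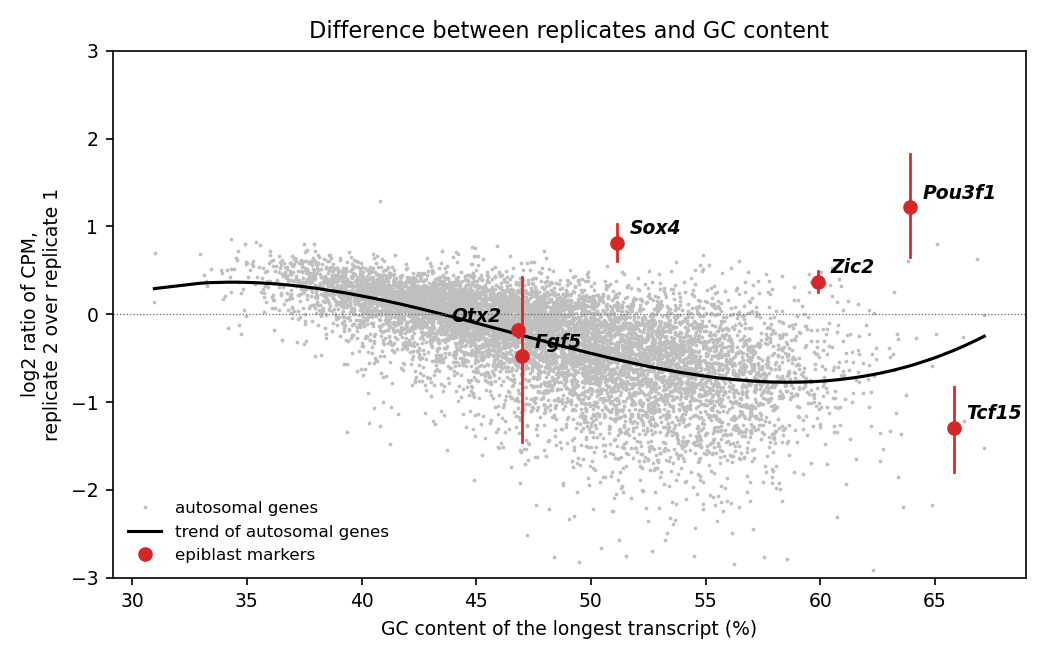
Log2 ratio of CPM, replicate 2 over replicate 1, against the GC content (%) of the longest transcript. Grey points are 9236 autosomal genes (5 of them lie beyond the axis limits), the black line is their trend, and red points are the 6 markers with 95% intervals from counting. Pou3f1, Sox4 and Zic2 lie above the trend by 1.80, 1.33 and 1.13, and Tcf15 lies below it.

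Each marker was then set beside members of its gene family, in counted exonic TPM, because reads of similar genes could be shared and because related factors may be present together. Otx2 was the only OTX gene above the limit that a count of 0 allows. Otx1 had 1 and 0 counts, and Crx had 1 count in each replicate.

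Zic2 was set beside Zic5, Zic1 and Zic4. Zic5, whose start lies 9725 bp from that of Zic2 on the opposite strand, had 180 and 102 counts. Its log2 ratio was -0.59 (adjusted p = 0.00175, exact binomial test), which did not pass with TMM factors (adjusted p = 0.0976, exact binomial test). Zic2 was 5.95 times Zic5 in replicate 1 (95% exact binomial interval 5.08 to 7.01) and 11.6 times in replicate 2 (9.48 to 14.4). With the full exonic length, much of which lies outside the counted interval of Zic5, these ratios were 11.9 (10.2 to 14.02) and 23.2 (19.0 to 28.7). Zic1 had 4 and 2 counts, and Zic4 had 0 in each.

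Among the SOXC genes, Sox4 was above Sox11 in both libraries on the counted bases, by 1.32 times in replicate 1 (95% exact binomial interval 1.15 to 1.51) and 1.92 times in replicate 2 (1.70 to 2.16). With the full exonic length these ratios were 0.815 and 1.18, so the order of the pair depends on the length. Sox11 was higher in replicate 2, as Sox4 was, with a log2 ratio of 0.28 (adjusted p = 0.000988, exact binomial test), whereas Sox12 had 47 and 10 counts and a log2 ratio of -1.95 (adjusted p = 2.16e-05, exact binomial test).

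Pou3f1 was the highest of the 4 POU class III genes. Pou3f3 had 7 and 12 counts, Pou3f2 had 4 in each replicate and Pou3f4 had 2 and 0.

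Fgf5 was set beside Fgf4, the growth factor that naive cells make and that drives them out of naive pluripotency, and beside the receptors of the FGF family. Fgf4 had 5798 and 2965 counts and exceeded Fgf5 by 171 times in replicate 1 (95% exact binomial interval 118 to 257) and by 144 times in replicate 2 (89.8 to 247). Fgf6 had 0 counts in each library. All 4 receptors had at least 10 counts in each. Fgfr1 was the highest, at 12.1 ± 3.88 counted exonic TPM (SD, n = 2), followed by Fgfr2 at 8.55 ± 0.428 TPM. Fgfr3 and Fgfr4 lay at 0.569 ± 0.0828 and 0.614 ± 0.00577 TPM, below Fgf5 in each library. Fgfr1 was lower in replicate 2, with a log2 ratio of -0.76 (adjusted p = 1.77e-14, exact binomial test). It stayed lower with TMM factors but did not pass against the GC trend (adjusted p = 0.836, exact binomial test). The other 3 receptors did not pass against the library totals, where 45.7% of all genes tested were lower and 15.1% higher. Fgfr2 was higher with TMM factors (adjusted p = 0.0427, exact binomial test). It was also higher with the GC trend (adjusted p = 0.000237, exact binomial test). Those scalings called 28.8% and 23.9% of all genes higher.

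Tcf15 was the highest of 5 related bHLH genes in each library. Msc, a bHLH repressor known from muscle and lymphoid cells, was next with 28 and 13 counts, Scx had 1 and 0, and Tcf21 and Msgn1 had 0 in each. Factors of this class bind DNA with E proteins, and ID proteins hold E proteins away from DNA. All 7 E protein and ID genes on the list had at least 10 counts in each replicate. Tcf12, an E protein, was the highest at 64.5 ± 11.4 counted exonic TPM (SD, n = 2). Id4 was 2.34 times Tcf15 in replicate 1 (95% exact binomial interval 1.95 to 2.82) and 6.03 times in replicate 2 (4.52 to 8.20). With the full exonic length these ratios were 1.06 (0.884 to 1.28) and 2.74, so in replicate 1 the pair did not differ beyond counting error on that length. Of the 7, Tcf4, Tcf12 and Id1 were higher in replicate 2 and Tcf3 was lower, where 15.1% of all genes tested were higher and 45.7% lower. With TMM factors Tcf3 had no call, and Id2 and Id4 were also called higher, against 28.8% of all genes. Tcf3 was higher against the GC trend, as were 23.9% of all genes, and Tcf4 had no call there.

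**Figure D3:**
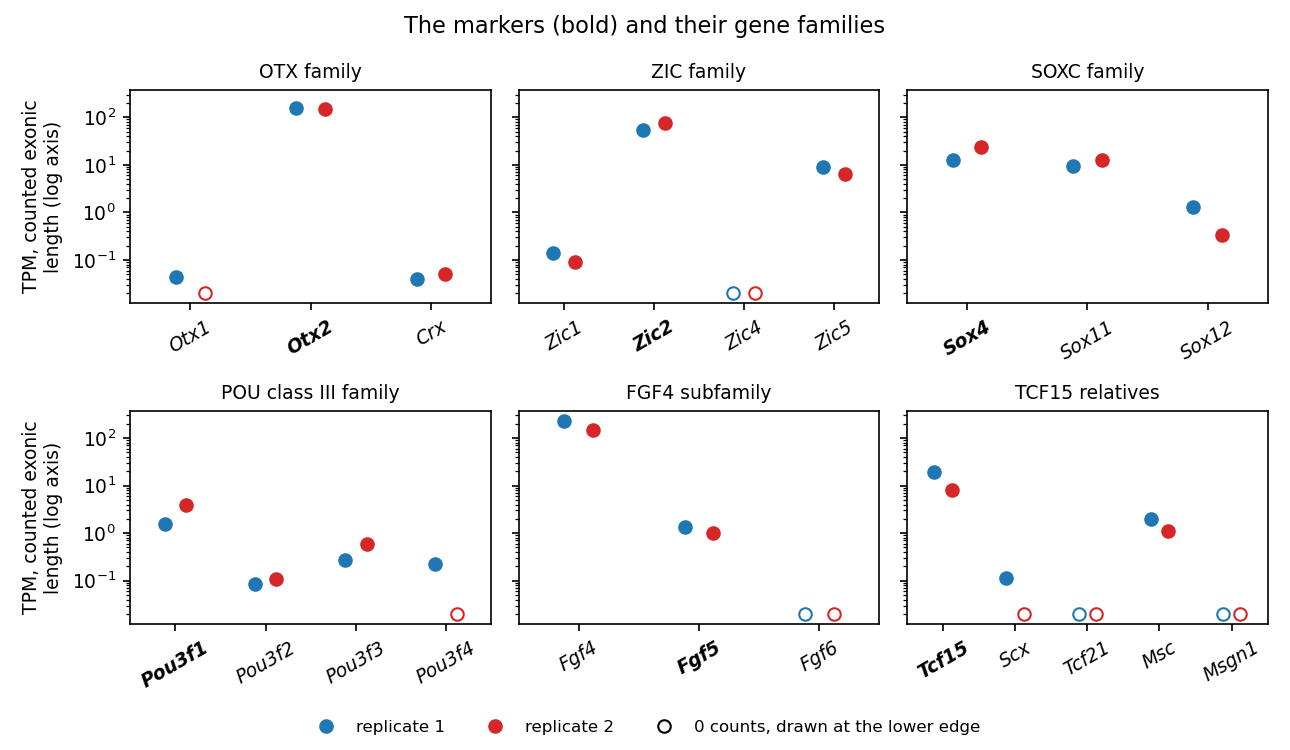
Counted exonic TPM (log axis) of each marker, in bold, and of genes of its family, in replicate 1 (blue) and replicate 2 (red). Open symbols at the lower edge are genes with 0 counts. Otx1 and Crx, with at most 1 count in a replicate, lie far below Otx2, and Fgf5 lies below Fgf4.

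Reads of neighbouring genes were a further check on the values. No gene on the strand of a marker overlaps it in the table, so no fragment was shared in that way, and counting used the strand. Otx2os1, which starts 1643 bp from Otx2 on the opposite strand, had 328 and 272 counts. 2610035F20Rik, which starts 184 bp from Zic2 on the opposite strand, had 17 and 20 counts, far below the 1097 and 1212 of Zic2. Otx2os1 had a log2 ratio of -0.044 between replicates (adjusted p = 0.804, exact binomial test), and 2610035F20Rik had 0.45 (adjusted p = 0.490, exact binomial test), so neither passed.

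To place the markers on the scale of the cell state, their median was set beside those of other marker lists. The 6 markers had a median span TPM of 44.7 in replicate 1 and 82.0 in replicate 2, and 61.1 on the mean of both, against 1.35 for all genes. The 14 naive genes had a median span TPM of 98.5 and 70.8, and 77.8 on the mean. The markers were therefore at 0.454 times the naive median in replicate 1 and 1.16 times in replicate 2, so the replicates differ in which list is higher on this scale. The study describes these mRNA data as having few reads in introns. Span TPM divides by introns too, so it raises genes without them, such as Sox4 and Pou3f1, against the rest. In counted exonic TPM the 6 markers had a median of 15.8 and 16.0, and the naive genes 96.2 and 59.9. The naive median was thus the higher in both replicates on that scale. On the mean of both replicates, the ratio of the medians was then 0.204, against 0.785 in span TPM.

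All 14 naive genes had at least 10 counts in each replicate. Nanog was at 699 ± 30.3 and Zfp42 at 766 ± 52.4 counted exonic TPM (SD, n = 2), above each of the 6 markers, and Gbx2 was the lowest at 2.26 ± 0.711. The test called 10 of the 14 lower and 2 higher in replicate 2, where 45.7% of all genes tested were lower and 15.1% higher. With TMM factors it called 6 lower and 5 higher, against 28.9% and 28.8% of all genes, and with the GC trend 5 lower and 5 higher, against 21.6% and 23.9%. The split of the naive list thus moved with the scaling, as did that of all genes.

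A further 16 genes of the formative and primed state had a median of 5.78 span TPM and 7.17 counted exonic TPM, and 14 of them had at least 10 counts in each replicate. Dnmt3b, a DNA methyltransferase gene, was the highest of the 16 at 63.0 ± 3.48 counted exonic TPM (SD, n = 2). Dnmt3a, which encodes the other de novo enzyme, was at 17.6 ± 0.891 and Lef1, a factor of the Wnt pathway, at 14.2 ± 0.274. Nodal, the ligand that maintains the epiblast, was at 9.28 ± 2.11. Sox3 and Wnt8a were near the limit of detection, with 4 and 2 counts and with 8 and 2 counts. Of 15 tested, 1 was higher and 6 lower in replicate 2 and 8 were not called, and with TMM factors 2 were higher and 3 lower, and with the GC trend 3 and 3. The shares of all genes under each scaling, given above for the naive list, are the background of these counts. Tead2 and Pim2 were lower with log2 ratios of -1.41 and -1.28, close to that of Tcf15, and remained lower and past the threshold with TMM factors and with the GC trend. The 3 that were higher with the GC trend were Dnmt3a, Dnmt3b and Sox11, by 0.57, 0.42 and 0.48.

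Most neuroectoderm, primitive streak and feeder genes were below 10 counts in a library, whereas most primitive endoderm genes were above it. Of 11 neuroectoderm genes, 3 had at least 10 counts in each replicate, Sox1 and Olig2 had 0, and the summed level was 89.5 and 83.5 CPM, mostly from Ncam1 with 1876 and 1516 counts. Of 10 primitive streak genes, 2 had at least 10 counts in each, and Gsc, Cer1, Mesp1 and Evx1 had 0. Their sum was 21.2 and 14.4 CPM over all 10, mostly from Eomes with 396 and 243 counts. Of 7 primitive endoderm genes, 6 had at least 10 counts in each, and the sum was 61.8 and 46.1 CPM, mostly from Lama1 with 855 and 465 counts and Dab2 with 490 and 377, while Gata6 had 38 and 25. Of 12 feeder fibroblast genes, none had at least 10 counts in each, and the sum was 2.70 and 0.986 CPM, with 32 and 2 counts for Thy1. The part of such cells in the levels of the epiblast markers was not tested.

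Of the 7 core pluripotency genes, 5 had at least 10 counts in each replicate. Sox2, which mESCs require, is listed at 0 in both libraries, and the interval of Sox2ot on the same strand covers all of it, so fragments there belong to more than 1 gene. Pou5f1, which encodes Oct4, had 1129 counts in replicate 1 and 142 in replicate 2. Its log2 ratio was -2.76 (adjusted p = 2.41e-157, exact binomial test), and it was also called lower with TMM factors and with the GC trend. The core genes did not share this direction. Of 6 tested, 3 were lower and 2, Foxd3 and Zfp281, were higher in replicate 2 against the library totals. With TMM factors 2 were higher and 2 lower, and with the GC trend 3 and 2. The shares of all genes, given above for the naive list, are the background of these counts. Sox2 is given no level here.

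**Figure D4:**
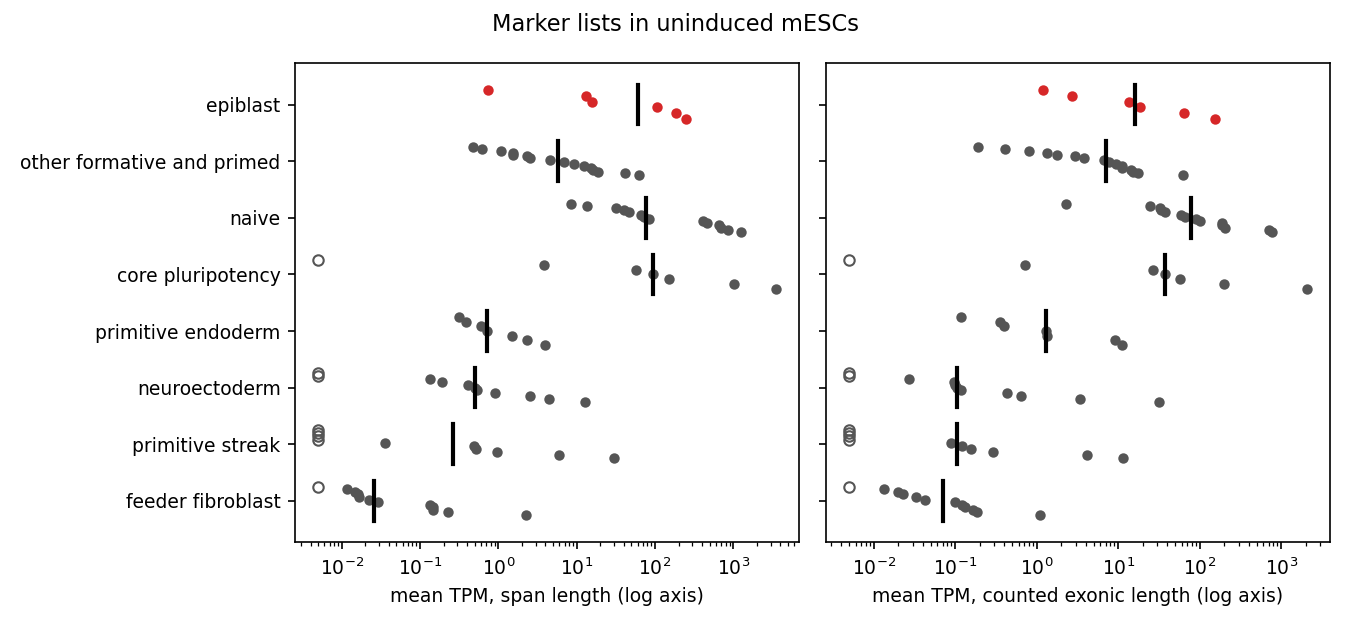
Mean TPM of the 2 replicates for each gene of 8 marker lists, with span length on the left and counted exonic length on the right (log axes). Each point is a gene, the epiblast markers are red, open symbols at the left edge have 0 counts, and black bars are medians. The median of the 6 markers is 61.1 span TPM and 15.9 counted exonic TPM, against 77.8 and 78.1 for the naive genes.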

How the data were processed

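The deposited table holds raw counts. Per the file headers, the authors ran featureCounts version 1.5.2, which assigned whole fragments, in reverse-stranded mode, to the transcribed span of each gene on mm10, introns included, with no option for multiple overlaps or for reads that map more than once. Per the labels, Bowtie2 2.3.2 and STAR 2.4.2a were used; their settings for these mRNA libraries are not given in the sources used here. mRNA was isolated on oligo-dT beads. The names of the count columns lack a letter that the sample descriptions carry, and columns were matched by the rest of the name.

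From the counts, CPM and TPM were computed, replicates averaged as in the study's methods. Exonic length is the union of exons of GENCODE M21 (GRCm38, the assembly of mm10), matched for 98.1% of the genes (21258 by symbol, 879 by older symbols). Counted exonic length keeps only the bases inside the counted interval and was added after the data had been seen. GC content is that of the longest GENCODE transcript, and the GC trend is a polynomial of degree 3 fitted to autosomal genes that reached 50 counts in both libraries.

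The libraries were compared gene by gene with the exact binomial test (two-sided), adjusted by Benjamini-Hochberg at 0.05 over genes whose counts summed to at least 10. This compares 2 libraries, not conditions. Log2 ratios used CPM after adding 0.5 counts. The script was tested on simulated data. Alternatives were TMM factors (edgeR 4.0.16), DESeq2 size factors (DESeq2 1.42.0, R 4.3.3), expectations from GC content or exon number, other filters and pseudocounts, and each replicate alone. The 6 members and all lists were chosen with earlier results of these data known. A further gene, which is in none of the lists used, is not reported here. Any gene of the lists could be named, and neighbours were genes starting within 20 kb. For likeness, the 2 genes nearest in log2(CPM + 0.5) over the 2 libraries were taken, among genes with a span within 2 times that of the marker.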

Additional observations from a re-analysis of the deposited data

How the results depend on the processing

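Of 122 alternatives to 22 results, 34 moved a value by more than the SD of the replicates and 4 reversed it. With 2 replicates, the mean without either one always lies within that SD, so such alternatives say nothing about the stability of a level. The 4 reversals were all the log2 ratio between replicates of Otx2, -0.18 with library totals, which was 0.072 with TMM factors, 0.13 with DESeq2 size factors, 0.044 against the GC trend and 0.0070 against genes with the same number of exons. The last was added after seeing the data. The median of the 6 markers was 61.1 with span TPM, 13.4 with the full exonic length, 15.9 with the counted exonic length (chosen after seeing the data) and 11.3 with CPM, and their ratio to the naive median was 0.785, 0.155, 0.204 and 0.128. Leaving out each replicate in turn gave a median of 44.7 to 82.0 span TPM and a ratio of 0.454 (without replicate 2) to 1.16 (without replicate 1). The number of markers past the threshold was 5 with library totals and with DESeq2 size factors and 4 with TMM factors, the GC trend and the exon number. The number detected was 6, and 4 with at least 50 counts in each replicate or 5 with a mean of at least 1 span TPM. No paired analysis was possible because only 1 group was sequenced. The comparison of the libraries could not be run without either replicate. Depth limits Fgf5 most, with 28 and 17 counts.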

Other observations

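The early response genes of FGF and ERK signalling, the pathway that drives cells from the naive to the formative state, were all present, and 7 of 7 had at least 10 counts in each replicate. Fos, at 48.4 ± 6.58 counted exonic TPM (SD, n = 2), and Etv5, a transcription factor of the pathway, at 48.2 ± 7.57, were the highest. Their order changed between the libraries, with Etv5 at 53.5 and Fos at 43.7 in replicate 1, and 42.8 and 53.0 in replicate 2. Dusp6, which removes the activating phosphate groups of ERK, was at 18.2 ± 2.27. Etv4, also counted with the formative genes, was the lowest at 1.79 ± 0.371. The median of the 7 was 18.2 counted exonic TPM, against 15.9 for the 6 epiblast markers. Spry4 and Etv5 were lower in replicate 2 with log2 ratios of -0.80 and -0.41 and Fos was higher with 0.19, each past an adjusted p of 0.05 in the exact binomial test, where 45.7% of all genes were lower and 15.1% higher. With TMM factors 2 of the 7 were lower and 3 higher, against 28.9% and 28.8% of all genes, and with the GC trend none was lower and 4 were higher, against 21.6% and 23.9%. Etv5 was among those 4, so its direction turned, and Spry4 had no call there.

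The genes whose levels were most like those of a marker were found by the distance in log2(CPM + 0.5) over the 2 libraries, which is a description over very few points. Ccdc37 had the same 28 and 17 counts as Fgf5, and Nova2 had 29 and 17. Cox11 (1087 and 1211 counts) and Zfp36l1 (1057 and 1180) were nearest to Zic2, and Frg1 (3563 and 2895) and Mphosph10 (3941 and 2946) to Otx2. Ovca2 (145 and 49) and Nagk (148 and 54) were nearest to Tcf15. For Sox4 the nearest were Pabpc4l (333 and 437) and Nudt10 (324 and 409). Pou3f1 had the most distant neighbours, Kcnrg (41 and 63) at 0.275 and B130006D01Rik (50 and 65) at 0.364, against a distance of 0.0131 between Zic2 and Cox11.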
